A study of Marchantia polymorpha and Klebsormidium nitens with 125 samples.

Results

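Phosphate starvation was examined in Mphd9-14, a knock-out line of the homeodomain transcription factor gene MpHD9 of the liverwort Marchantia polymorpha. The comparison was chosen by its labels: 3 phosphate-starved libraries were set against 3 control libraries of the same line, over all genes. These 6 libraries belong to a set of 35 mutant libraries in a series of 125 libraries. The series asked how responses to nitrate, phosphate and sucrose compare between a liverwort and an alga, and what MpCSD, MpERF20 and MpHD9 contribute to them in the liverwort. Whole gemmalings, young plants grown from asexual gemmae, gave the RNA.

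The groups used here were the following. Phosphate-starved Mphd9-14 gemmalings had spent 5 days in Yamagami medium with 1% of its KH2PO4, after 7 days of liquid culture in full medium. Nitrate-starved Mphd9-14 had 1% of the NaNO3 and KNO3, and sucrose-starved Mphd9-14 had 0% of the sucrose, for as many days. Control Mphd9-14 stayed in full medium, and the labels do not say for how many days after the preculture, so starvation and age at harvest cannot be told apart. Phosphate-starved and control gemmalings of the knock-out lines Mpcsd-2 (MpCSD) and Mperf20-21 (MpERF20) came from the same set, and those of the wild-type strain Tak-1 from a separate time course. Each mutant is represented by 1 line, and every group had 3 libraries. The labels do not say whether replicates were separate cultures, so p-values measure the spread between these libraries, which may be technical.

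Plants take up phosphorus as inorganic phosphate. When it runs short they commonly raise the level of high-affinity phosphate transporters, release phosphate from phospholipids and other esters, and alter the growth and walls of the cells that absorb it, which in liverworts include the rhizoids. Proteins with an SPX domain report the phosphate status of the cell in Arabidopsis and hold back the transcription factors of this response. Phosphate and iron also interact outside the cell, where multicopper oxidases of the LPR family take part in the root response of Arabidopsis.

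Totals ran from 16878159 to 22628524 counts in the 6 libraries and from 16878159 to 28439838 in the mutant set. The transcript of MpHD9 stood at 23.3, 24.1 and 23.2 CPM (counts scaled to 1000000 per library) in phosphate-starved Mphd9-14 and at 22.7, 24.3 and 21.7 CPM in control Mphd9-14. It stood at 29.2, 26.9 and 25.9 CPM in phosphate-starved Tak-1 and at 29.1, 28.7 and 31.0 CPM in control Tak-1. In a separate control-condition set it stood at 31.7, 35.1 and 34.2 CPM in Mphd9-14. Wild type of that set had 46.1, 49.9 and 47.4 CPM, without overlap. Reads of the mutated gene were thus present in the mutant, and since the labels do not describe the lesion, its level does not by itself check the genotype. The thallus gene MpRBCS (small Rubisco subunit) averaged 419 ± 20.2 CPM in phosphate-starved and 411 ± 12 CPM in control libraries, the air chamber gene MpNOP1 93.8 ± 4.56 and 95.1 ± 6.21 CPM, and the rhizoid regulator MpRSL1, listed as MpBHLH14, 13.0 ± 1.08 and 14.8 ± 1.54 CPM (SD, n = 3 each). Of 6 gametangia and germ cell markers, MpBNB was at 0 in all 6 libraries and MpPRM had at most 0.0457 CPM. The other 4 were detected, led by MpRKD at 99.2 ± 6.71 CPM in phosphate-starved and 105 ± 3.25 CPM in control libraries and MpMID at 4.76 ± 0.282 and 4.14 ± 0.801 CPM (SD, n = 3 each). One library used for comparison stood apart from its group. Among Tak-1 libraries, phosphate-starved replicate 2 differed at least 2-fold from replicate 1 at 103 of 9375 genes (1.1%) and from replicate 3 at 124 of 9384 (1.32%), whereas replicates 1 and 3 differed at 5 of 9302 (0.0538%). Phosphate-starved Mphd9-14 pairs differed at 1 to 8 genes and control Mphd9-14 pairs at 0 to 7. Differences of named genes from Tak-1 are therefore given with and without that library.

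Phosphate-starved Mphd9-14 plants raised a small set of genes led by phosphate transporters, class III peroxidases, polyphenol oxidases, expansins and wall-modifying enzymes, and lowered a smaller one that held the iron-linked genes MpLPR7 and MpFRO1. By edgeR's quasi-likelihood test with Benjamini-Hochberg adjustment over 13162 genes, 262 genes rose, 1.99% of those tested, and 41 fell, 0.312%. Of these, 177 changed at least 2-fold, 1.34% of the tested genes, with 159 higher and 18 lower. Across all tested genes the median log2 fold change was −0.002, and 1322 genes had an unadjusted p under 0.05. Every one of the 303 called genes had control and starved libraries that did not overlap. Over all 13162 tested genes the same held for 1572 higher and 1289 lower ones. A call with 3 libraries per group nearly requires it, so it adds no separate support. Of the called genes, 78 carried a symbol, 73 of them higher and 5 lower, and 151 reached a mean of 10 CPM in their higher group. The count rested in part on single libraries. It was 163 without phosphate-starved replicate 2 and 186, 176 and 185 without control replicates 1, 2 and 3, with 2 libraries left in 1 group and the spread taken from all groups. It was 707 when the 6 libraries were fitted alone. In whole plants, fewer cells of a type and less RNA per cell cannot be told apart.

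**Figure D1:**
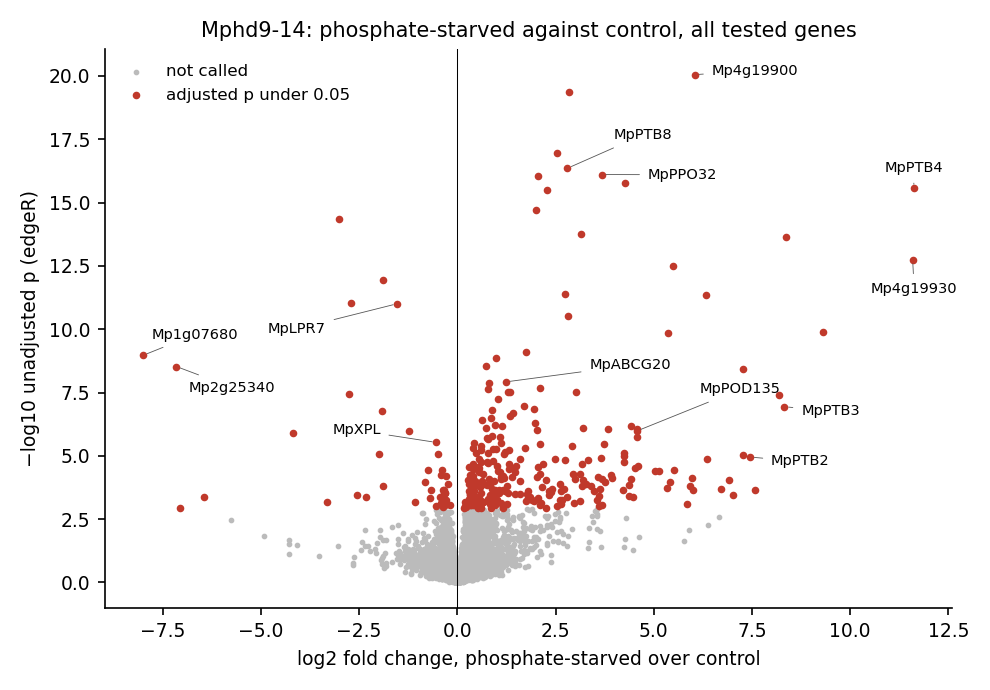
Each point is 1 of the 13162 tested genes in Mphd9-14, with the log2 fold change of phosphate-starved over control libraries on the x axis and −log10 of the unadjusted edgeR p on the y axis. Red points are the 303 called genes (adjusted p under 0.05), of which 262 lie to the right of 0 and 41 to the left.

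Phosphate transporters gave the clearest change. MpPTB8, of the PTB family of sodium-coupled phosphate transporters, had 223, 241 and 206 CPM in phosphate-starved libraries, against 33.5, 32.2 and 30.8 CPM in control libraries. The starved libraries all lay far above the controls, with a log2 fold change of 2.80 ± 0.16 (SE; edgeR adjusted p = 1.45e-13). MpPTB4 had 18.2, 19.4 and 17.2 CPM in phosphate-starved libraries and not a single count in the 3 controls. With the control group read as at most 3 counts over its libraries, the gene was at least 395-fold higher (edgeR adjusted p = 4.53e-13).

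Low-level relatives of MpPTB4 pointed the same way, though not all passed the test. MpPTB3 had 2.17, 2.49 and 0.889 CPM in phosphate-starved libraries and 0 counts in control libraries, at least 41.0-fold higher (edgeR adjusted p = 3.7e-05). MpPTB2 had 1.11, 0.927 and 1.01 CPM against 0 counts, at least 21.8-fold higher (edgeR adjusted p = 0.00167). MpPTB5 had 0.757, 1.71 and 0.829 CPM against 0 counts, at least 24.1-fold higher (edgeR adjusted p = 0.0154). Its call was lost in DESeq2 (adjusted p = 0.604), without any 1 of the 3 controls (adjusted p between 0.0582 and 0.0621) and without phosphate-starved replicate 2 (adjusted p = 0.0744). MpPTB1 had 0.202, 1.17 and 0.355 CPM in phosphate-starved libraries and 0 counts in controls, and did not pass (edgeR adjusted p = 0.0875). In the reference gene table MpPTB4, MpPTB6, MpPTB2, MpPTB3, MpPTB1 and MpPTB5 are consecutive loci, Mp4g16560 to Mp4g16610 on chromosome 4. Reads of such neighbouring copies, MpPTB4 included, may have been split between them or dropped in an unknown way. A sum over them avoids the split but not a loss of shared reads. Summed over MpPTB1 to MpPTB6, the level was 22.4, 25.7 and 20.3 CPM in phosphate-starved libraries and 0 in each of the 3 controls. MpPTB6, part of this sum, was not among the 10 tested of the 11 phosphate list members. MpPTB7, on chromosome 8, had 2.88, 5.27 and 2.78 CPM in phosphate-starved and 2.24, 1.33 and 2.17 CPM in control libraries, and did not pass (0.94 ± 0.41; edgeR adjusted p = 0.363).

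Sensing and storage genes of the same pathway did not pass the test. MpSPX, an SPX-domain gene, had 100, 95.6 and 95.4 CPM in phosphate-starved and 90.5, 93.7 and 87.5 CPM in control libraries. All starved values lay above all control values, by a small margin (0.11 ± 0.09; edgeR adjusted p = 0.833). MpVPT, named for vacuolar phosphate transporters, had 76.2, 72.8 and 69.0 CPM in phosphate-starved and 55.7, 63.8 and 52.7 CPM in control libraries (0.35 ± 0.10; edgeR adjusted p = 0.0659, 0.0325 in DESeq2 and 0.00376 with the 6 libraries fitted alone). MpNLA is named for the Arabidopsis ubiquitin ligase that removes phosphate transporters. Its level was 4.19, 2.97 and 4.21 CPM in phosphate-starved and 8.47, 7.31 and 6.98 CPM in control libraries (−1.0 ± 0.45; edgeR adjusted p = 0.423, and 0.00182 with the 6 libraries fitted alone). In all, 5 of the 10 tested members of the phosphate transport and sensing list rose and 0 fell, against 1.99% and 0.312% of all tested genes. The median log2 fold change of the list was 3.24 with the 5 genes without control counts set at their lower bounds, against −0.002 over all genes.

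Phosphate recycling changed little. Of 10 tested genes for phospholipases, phosphatases and related lipid remodelling, 1 rose and 0 fell, with a median log2 fold change of 0.16. Over all tested genes 1.99% rose and 0.312% fell. The gene that rose was MpGDPD, a glycerophosphodiester phosphodiesterase, the enzyme type that splits the head groups left by phospholipid breakdown. MpGDPD had 308, 328 and 318 CPM in phosphate-starved and 182, 187 and 203 CPM in control libraries, a wide gap between the groups (0.74 ± 0.17; edgeR adjusted p = 0.0111). Its adjusted p was 0.0745 and 0.0634 without control replicates 1 and 2 and 0.0586 without phosphate-starved replicate 2.

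Lipid droplet proteins gave 2 rises and 0 falls among 5 tested genes, with a median of −0.04. The share that rose was 40% of this short list, against 1.99% of all tested genes. MpLDAP, a lipid droplet-associated protein, had 80, 85.2 and 100 CPM in phosphate-starved and 56.2, 64.1 and 63.9 CPM in control libraries, without overlap (0.53 ± 0.12; edgeR adjusted p = 0.01). The adjusted p was 0.0996 without control replicate 1 and 0.13 without phosphate-starved replicate 3. MpOLEOSIN, which coats lipid droplets, had 1.71, 2.73 and 1.78 CPM in phosphate-starved and 0.797, 0.503 and 0.177 CPM in control libraries (2.1 ± 0.44; edgeR adjusted p = 0.0055). Its call was lost without control replicate 3 (adjusted p = 0.0602) or phosphate-starved replicate 2 (adjusted p = 0.059).

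Among 7 tested iron-linked genes, 0 rose, 2 fell and 5 did not pass, where 0.312% of all tested genes fell. The list had a median log2 fold change of −0.41. MpLPR7, of the LPR multicopper oxidase family, had 15.2, 16.5 and 15.5 CPM in phosphate-starved libraries, against 52.1, 40.2 and 44.8 CPM in controls. Each starved library was far below every control, a log2 fold change of −1.53 ± 0.14 (edgeR adjusted p = 6.48e-09). MpFRO1, a ferric reductase gene, had 32.4, 28.9 and 31.9 CPM in phosphate-starved and 42.8, 40.6 and 41.0 CPM in control libraries (−0.41 ± 0.09; edgeR adjusted p = 0.00583, and 0.0628 without phosphate-starved replicate 2). The other 3 genes with a symbol that fell were MpXPL, MpZIP3 and MpTHIO. MpXPL, at 195, 185 and 189 CPM in phosphate-starved and 282, 257 and 290 CPM in control libraries, fell by 0.53 ± 0.09 (edgeR adjusted p = 0.000588); the name is that of an Arabidopsis enzyme of phosphocholine synthesis. MpZIP3 had 70.8, 74.3 and 70.4 CPM in phosphate-starved and 95.1, 92.9 and 95.4 CPM in control libraries (−0.39 ± 0.08; edgeR adjusted p = 0.0042). MpTHIO had 40.4, 38.7 and 41.5 CPM in phosphate-starved and 49.1, 47.4 and 54.2 CPM in control libraries (−0.31 ± 0.08; edgeR adjusted p = 0.0189). It did not pass without control replicate 3 (adjusted p = 0.199) or without phosphate-starved replicates 1 or 2 (0.0652 and 0.116).

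Class III peroxidases, secreted enzymes that use hydrogen peroxide to cross-link or loosen walls and oxidise phenols, were the largest group of called genes. Of 65 tested, 18 rose (27.7%, against 1.99% of all tested genes) and 0 fell. The list had a median log2 fold change of 0.99. Summed over these 18, the level was 30.6, 60.7 and 36.9 CPM in phosphate-starved and 3.89, 3.29 and 4.11 CPM in control libraries. The members of this sum were chosen as higher in this same contrast, which fixes that the groups are apart. Replicate 2 was the highest starved library. MpPOD135 had 3.13, 6.49 and 5.04 CPM in phosphate-starved and 0.149, 0.0457 and 0.398 CPM in control libraries (4.57 ± 0.72; edgeR adjusted p = 0.000236). MpPOD155 had 2.47, 7.66 and 3.55 CPM in phosphate-starved and 0.249, 0.0457 and 0.265 CPM in control libraries (4.59 ± 0.75; edgeR adjusted p = 0.000383). MpPOD93 had 2.07, 4.49 and 2.61 CPM in phosphate-starved and 0.0996, 0.0457 and 0.221 CPM in control libraries (4.57 ± 0.71; edgeR adjusted p = 0.000201). In each of them replicate 2 was the highest starved library. The number of peroxidases called was 11 without control replicate 2 or without phosphate-starved replicate 2, and 12 to 17 without any other of the 6 libraries. Peroxidases are a large family with similar members, several of them neighbours, and the sharing of reads among them is unknown. MpPOD3, a well-expressed peroxidase, had 87.0, 90.3 and 81.3 CPM in phosphate-starved and 91.7, 80.6 and 96.1 CPM in control libraries, with overlapping ranges (−0.05 ± 0.15; edgeR adjusted p = 0.982).

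Polyphenol oxidases, copper enzymes that oxidise phenols, gave 5 rises and 0 falls among 27 tested genes, with a median log2 fold change of 0.34. The share that rose was 18.5%, against 1.99% of all tested genes. MpPPO32 had 54.1, 49.7 and 51.2 CPM in phosphate-starved libraries, against 4.98, 3.66 and 3.54 CPM in controls. The groups were far apart, at 3.68 ± 0.21 (edgeR adjusted p = 2.01e-13). MpPPO72 had 5.40, 8.14 and 5.21 CPM in phosphate-starved and 0.648, 0.320 and 0.442 CPM in control libraries (3.74 ± 0.65; edgeR adjusted p = 0.000668). The other called members were MpPPO14, MpPPO48 and MpPPO56. MpPPO14 had 1.71, 2.44 and 1.42 CPM in phosphate-starved and 0.149, 0.0457 and 0.0884 CPM in control libraries (4.25 ± 0.82; edgeR adjusted p = 0.00238). MpPPO14 (Mp6g19030), MpPPO72 (Mp6g19040) and MpPPO56 (Mp6g19020) carry neighbouring identifiers and may share reads.

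Among wall genes, 6 of 22 tested expansins rose (27.3%, against 1.99% of all tested genes) and 0 fell, with a median of 0.45. Expansins loosen walls without cutting them. MpExpansin14 had 29.1, 29.4 and 26.7 CPM in phosphate-starved and 17.7, 16.1 and 16.8 CPM in control libraries, without overlap (0.76 ± 0.13; edgeR adjusted p = 0.000413). MpExpansin21 had 2.88, 3.17 and 3.44 CPM in phosphate-starved and 1.44, 0.731 and 1.41 CPM in control libraries (1.40 ± 0.30; edgeR adjusted p = 0.00637, and 0.0789 without control replicate 2). MpExpansin38 had 1.71, 3.12 and 1.66 CPM in phosphate-starved and 0.349, 0.320 and 0.619 CPM in control libraries (2.32 ± 0.56; edgeR adjusted p = 0.0162). Its call was lost without phosphate-starved replicate 2 (0.154) or control replicates 1 or 2 (0.101 and 0.112).

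Of 57 tested wall enzymes, 8 rose (14%, against 1.99% of all tested genes) and 0 fell, with a median of 0.10. MpCSLD1, of the cellulose synthase-like D family that acts in root hair tip growth in Arabidopsis, had 27.3, 27.4 and 24.6 CPM in phosphate-starved and 17.7, 15.4 and 13.4 CPM in control libraries (0.78 ± 0.14; edgeR adjusted p = 0.00125). MpGH16.26 and MpGH16.31 belong to glycoside hydrolase family 16, which holds enzymes that cut and rejoin xyloglucan. The first had 2.32, 4.73 and 3.55 CPM in phosphate-starved and 0.548, 0.229 and 0.619 CPM in control libraries (2.92 ± 0.52; edgeR adjusted p = 0.000751). MpGH16.31 had 2.82, 3.61 and 3.91 CPM in phosphate-starved and 0.349, 0.229 and 0.442 CPM in control libraries (3.32 ± 0.63; edgeR adjusted p = 0.00197). Outside the list, the glycosyltransferase MpGT34.10 had 9.63, 11.5 and 11.8 CPM in phosphate-starved and 3.79, 4.30 and 4.29 CPM in control libraries, a clear gap (1.42 ± 0.21; edgeR adjusted p = 6.09e-05).

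**Figure D2:**
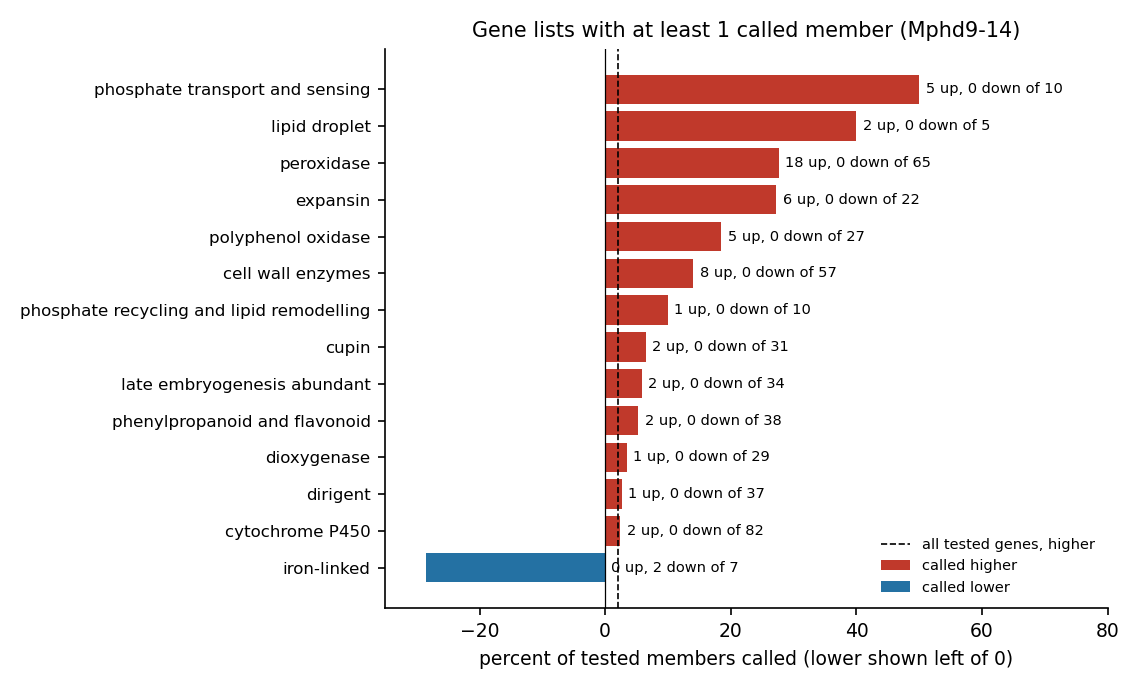
Bars give the percent of tested members called higher (red, right of 0) or lower (blue, left of 0) in phosphate-starved against control Mphd9-14, for each list with at least 1 called gene, and the labels give the counts. The dashed line marks 1.99%, the share of all tested genes called higher; phosphate transport (5 of 10), peroxidases (18 of 65) and expansins (6 of 22) lie well to its right, and the iron-linked list has 2 of 7 lower.

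Phenolic metabolism and other groups gave single genes. Of 38 phenylpropanoid and flavonoid genes, 2 rose (5.26%, against 1.99% of all tested genes) and 0 fell. MpPAL9, of the phenylalanine ammonia-lyases that open the phenylpropanoid pathway, had 5.75, 7.12 and 7.05 CPM in phosphate-starved and 2.69, 2.42 and 3.71 CPM in control libraries (1.17 ± 0.25; edgeR adjusted p = 0.00615, and 0.0635 without control replicate 2). The other was MpPKS/CHS23, a chalcone synthase-like gene, with 75.2, 70.6 and 79.5 CPM in phosphate-starved and 46.0, 63.4 and 50.9 CPM in control libraries (0.50 ± 0.13; edgeR adjusted p = 0.038). Its call was lost without any 1 of 5 of the 6 libraries, at adjusted p between 0.0819 and 0.286, and was kept without control replicate 2. MpPR5b, named for the thaumatin-like pathogenesis-related proteins, had 48.1, 49.6 and 53.6 CPM in phosphate-starved and 20.5, 22.6 and 18.9 CPM in control libraries (1.30 ± 0.17; edgeR adjusted p = 1.1e-05). MpABCG20, an ABC transporter of the G family, had 32.8, 40.3 and 32.3 CPM in phosphate-starved and 17.2, 13.3 and 14.5 CPM in control libraries (1.24 ± 0.16; edgeR adjusted p = 5.28e-06). In both genes every starved library lay well above every control.

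Among 82 cytochrome P450 genes 2 rose (MpCYP8290 and MpCYP813B1), among 34 late embryogenesis abundant genes 2 (MpLEA-like54 and MpLEA-like55), among 31 cupins 2 (MpCupin71 and MpCupin85), among 37 dirigent genes 1 (MpDIR10) and among 29 dioxygenases 1 (MpDOXC20). None of these lists had a lower gene. The shares called higher were 2.44% of P450, 2.7% of dirigent and 3.45% of dioxygenase genes, near the 1.99% of all tested genes, and 5.88% of late embryogenesis abundant and 6.45% of cupin genes. Several of these calls rested on single libraries. MpDIR10 lost its call in DESeq2 (adjusted p = 0.124) and without any 1 of 5 of the 6 libraries (adjusted p between 0.0618 and 0.249), and kept it without control replicate 1. MpLEA-like54 lost it without control replicates 2 or 3 or phosphate-starved replicate 2 (0.165, 0.0886 and 0.177). MpLEA-like55 lost it without control replicate 2 or phosphate-starved replicate 2 (0.0502 and 0.0599), and MpCupin71 without phosphate-starved replicate 2 (0.0917). MpCYP8290 had 11.7, 13.0 and 11.8 CPM in phosphate-starved and 5.63, 5.07 and 5.88 CPM in control libraries (1.14 ± 0.18; edgeR adjusted p = 0.000171). MpCupin85 had 56 counts over the phosphate-starved libraries and 1 over the controls, a depth-scaled ratio of 63.2 with a 95% exact interval of 10.9 to 2540 that covers counting error only.

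No gene was called, at 0 higher and 0 lower, among 22 nitrate and peptide transporters, 4 ammonium transporters, 2 sucrose transporters, 21 autophagy genes, 17 cell cycle genes, 25 histones, 14 desaturases, 5 heat shock genes, 53 glutathione and antioxidant genes, 73 receptor-like kinases or 20 auxin and abscisic acid genes. The same held for the transcription factor lists, with 13 WRKY, 15 ERF, 13 bZIP, 38 MYB, 38 bHLH and 15 homeobox genes tested. Over these 388 genes, 37 had an unadjusted p under 0.05, and DESeq2 called 3. Over all 13162 tested genes, 1322 had such a p, edgeR called 303 and DESeq2 called 376. At such shares a short list without a called gene does not stand out. MpERF18 had 79.2, 75.3 and 77.1 CPM in phosphate-starved and 46.8, 45.9 and 48.3 CPM in control libraries. Its groups were well apart, yet it did not pass in the fit of all 35 libraries (0.72 ± 0.26; edgeR adjusted p = 0.198), and it did when the 6 libraries were fitted alone (edgeR adjusted p = 9.54e-07).

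Several of the strongest changes were in genes without a symbol, which are given by identifier and were added after their values were seen. Mp4g19900 had 153, 171 and 148 CPM in phosphate-starved and 2.14, 2.1 and 2.87 CPM in control libraries (6.05 ± 0.25; edgeR adjusted p = 1.16e-16). Mp4g19930 had 14.8, 22.3 and 16.6 CPM in phosphate-starved libraries and 0 counts in controls, at least 388-fold higher (edgeR adjusted p = 1.68e-10). Both changes separated the groups completely. In the other direction, Mp2g25340 had 0.101, 0.439 and 0 CPM in phosphate-starved and 33.9, 17.2 and 33.5 CPM in control libraries (−7.15 ± 0.85; edgeR adjusted p = 1.39e-06). Mp1g07680 had 0.0504, 0 and 0.0592 CPM in phosphate-starved and 11.5, 6.63 and 13.2 CPM in control libraries (−8.00 ± 0.88; edgeR adjusted p = 5.63e-07). These genes were close to absent in starved plants, with 11 and 2 counts over the 3 libraries.

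The next question was which of these changes belonged to phosphate rather than to starvation in general. In nitrate-starved against control Mphd9-14, 141 genes rose (1.07% of those tested) and 19 fell (0.144%). That comparison uses the same 3 control libraries as the phosphate one, so the values are set side by side and the test is the direct contrast of the starved groups. Phosphate-starved and nitrate-starved libraries differed at 149 genes, 1.13% of those tested, with 100 higher and 49 lower under phosphate starvation, and at 557 when these 6 libraries were fitted alone.

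Phosphate transporters and MpPPO32 separated the starvations. MpPTB8 had 223, 241 and 206 CPM in phosphate-starved and 20.5, 19.8 and 22.6 CPM in nitrate-starved libraries (3.41 ± 0.16; edgeR adjusted p = 3.49e-15). MpPTB4 had no count in nitrate-starved libraries, and summed MpPTB1 to MpPTB6 reached 0, 0.0546 and 0.0407 CPM there. All 5 transporters that rose against control were also higher against nitrate starvation. MpPPO32 had 5.08, 4.64 and 5.09 CPM in nitrate-starved libraries, near the controls (phosphate over nitrate 3.38 ± 0.21; edgeR adjusted p = 6.42e-13). MpExpansin14 had 17.1, 17.2 and 19.3 CPM in nitrate-starved libraries, below all phosphate-starved ones (0.66 ± 0.13; edgeR adjusted p = 0.00298). MpLDAP had 52.9, 61.6 and 55.4 CPM in nitrate-starved libraries, also below them (0.64 ± 0.12; edgeR adjusted p = 0.00221). MpABCG20 and MpCYP8290 were higher under phosphate starvation as well, by 1.02 ± 0.16 and 1.42 ± 0.18 (edgeR adjusted p = 0.000148 and 8.89e-06). MpLPR7, at 35.3, 30.5 and 34.1 CPM in nitrate-starved libraries, was lower under phosphate starvation (−1.09 ± 0.14; edgeR adjusted p = 8.89e-06), and so was MpFRO1 (−0.40 ± 0.09; edgeR adjusted p = 0.0105).

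Most peroxidases, polyphenol oxidases and wall genes did not separate the starvations. Against control, nitrate starvation raised 12 peroxidases, 7 polyphenol oxidases, 3 expansins and 8 wall enzymes, where phosphate starvation raised 18, 5, 6 and 8. The 18 peroxidases summed to 30.6, 60.7 and 36.9 CPM in phosphate-starved and 30.9, 23.3 and 25.9 CPM in nitrate-starved libraries, with overlapping ranges. Their choice as higher under phosphate starvation tilts this sum toward the phosphate-starved libraries. MpPPO72 had 8.65, 6.11 and 5.38 CPM in nitrate-starved libraries (phosphate over nitrate −0.10 ± 0.51; edgeR adjusted p = 0.997). MpGT34.10 had 11.5, 11.1 and 11.6 CPM there (−0.06 ± 0.20; edgeR adjusted p = 0.996). In both genes the starved groups overlapped and lay above all controls. In the direct contrast 2 peroxidases were higher (MpPOD138 and MpPOD143) and 2 lower (MpPOD88 and MpPOD161) under phosphate starvation, of 65 tested. The call of MpPOD88 was lost without nitrate-starved replicates 1 or 3 or any 1 of the 3 phosphate-starved libraries, at adjusted p between 0.0771 and 0.147. No wall enzyme was called in either direction (0 of 57), 1 polyphenol oxidase was higher (MpPPO32) and 1 expansin (MpExpansin14). A p that missed the threshold does not show that the levels were equal.

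**Figure D3:**
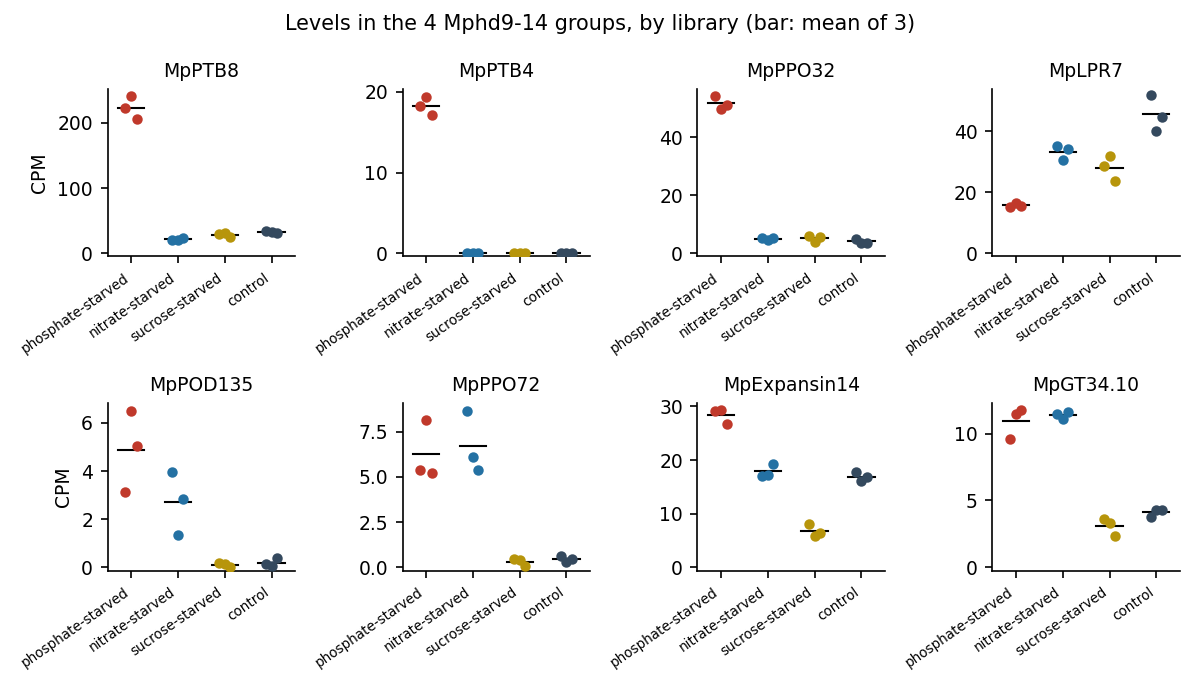
Points are single Mphd9-14 libraries and bars the mean of 3, in CPM, for phosphate-starved, nitrate-starved, sucrose-starved and control plants. MpPTB8, MpPTB4 and MpPPO32 are high, and MpLPR7 low, in phosphate-starved plants, while MpPPO72 and MpGT34.10 are about as high in nitrate-starved as in phosphate-starved plants.

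Sucrose starvation differed far more. Phosphate-starved and sucrose-starved libraries differed at 3456 genes, 26.3% of those tested, with 1726 higher and 1730 lower under phosphate starvation. The 18 peroxidases summed to 30.6, 60.7 and 36.9 CPM in phosphate-starved and 1.70, 3.18 and 0.873 CPM in sucrose-starved libraries, which all lay below the controls. Of the tested peroxidases, 34 were higher and 8 lower under phosphate than under sucrose starvation. All 17 expansins that differed were higher under phosphate starvation, and the 6 called ones summed to 35.7, 40.1 and 33.5 CPM in phosphate-starved and 9.17, 6.36 and 6.88 CPM in sucrose-starved libraries. These 6 expansins and the 18 peroxidases were chosen as higher in these same phosphate-starved libraries, which tilts both sums toward them. MpGDPD was lower under phosphate than under sucrose starvation, with 308, 328 and 318 CPM in phosphate-starved and 450, 470 and 505 CPM in sucrose-starved libraries (−0.67 ± 0.17; edgeR adjusted p = 0.00337).

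The response was then set beside that of the wild-type strain Tak-1, whose libraries came from a separate set with its own controls. In Tak-1, 1290 genes rose with phosphate starvation, 9.57% of 13475 tested, and 1422 fell, 10.6%. Of the 262 genes that rose in Mphd9-14, 94 also rose in Tak-1, which is 35.9% of the Mphd9-14 list and 7.34% of the Tak-1 list, where 9.73% of all genes tested in both rose in Tak-1. Of the 41 that fell, 24 fell in Tak-1, 58.5% of the Mphd9-14 list and 1.7% of the Tak-1 list, where 10.7% of all genes fell. Without Tak-1 phosphate-starved replicate 2 the shared counts were 86 and 20.

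The difference between both responses, tested as an interaction, was called at 687 genes, 5.1% of those tested. The response was the larger one in Tak-1 at 622 of them and in Mphd9-14 at 63, and the other 2, Mp8g14770 and Mp8g15800, were not among the genes tested in Mphd9-14 alone. The fitted responses had opposite signs at 423 of them, of which 8 were called in both genotypes. Leaving out Tak-1 phosphate-starved replicate 2 raised the count to 1368, 10.2% of 13448. Leaving out others lowered it, to 344 and 352 without Tak-1 phosphate-starved replicates 1 and 3, 332 without Tak-1 control replicate 2, 369 without Mphd9-14 phosphate-starved replicate 2, and 452 and 446 without Mphd9-14 control replicates 1 and 2. With only the 12 libraries of the contrast it was 1453. The Tak-1 and Mphd9-14 libraries came from separate sets, and the labels do not say whether the plants were grown together. An effect of the set that acted on 1 arm cannot be told apart from the genotype.

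The leading phosphate genes did not pass this test of a difference. MpPTB8 had 126, 296 and 169 CPM in phosphate-starved and 19.8, 25.1 and 20.2 CPM in control Tak-1 libraries, and the responses differed by −0.32 ± 0.28 (Mphd9-14 minus Tak-1; edgeR adjusted p = 0.586), and by 0.08 ± 0.23 without Tak-1 phosphate-starved replicate 2 (adjusted p = 0.89). Summed MpPTB1 to MpPTB6 reached 22.4, 25.7 and 20.3 CPM in phosphate-starved Mphd9-14 and 6.26, 25.7 and 9.94 CPM in phosphate-starved Tak-1, so the groups overlapped only through Tak-1 replicate 2. MpPPO32 had 16.8, 75.3 and 30 CPM in phosphate-starved and 2.81, 3.34 and 3.42 CPM in control Tak-1 libraries (difference 0.07 ± 0.47; edgeR adjusted p = 0.965). Without replicate 2 the difference of MpPPO32 was 0.85 ± 0.33 (adjusted p = 0.109). MpLPR7 had 16.8, 19.4 and 20.2 CPM in phosphate-starved and 62.6, 75.6 and 69.3 CPM in control Tak-1 libraries (difference 0.41 ± 0.19; edgeR adjusted p = 0.225, and 0.205 without replicate 2 at the same difference). Mp4g19900 had 73.5, 209 and 104 CPM in phosphate-starved and 1.36, 1.04 and 0.571 CPM in control Tak-1 libraries (difference −0.88 ± 0.53; edgeR adjusted p = 0.393), and the difference was −0.35 ± 0.42 without replicate 2 (adjusted p = 0.677). For MpPTB1, MpPTB2, MpPTB3 and MpPTB5 the difference could not be estimated, because the controls of both genotypes held 0 counts.

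MpSPX did differ. In Tak-1 it had 182, 163 and 209 CPM in phosphate-starved and 102, 102 and 108 CPM in control libraries, where Mphd9-14 had 100, 95.6 and 95.4 against 90.5, 93.7 and 87.5 CPM. The response was smaller in Mphd9-14 by 0.66 on the log2 scale (−0.66 ± 0.13; edgeR adjusted p = 0.00244), and by 0.76 without Tak-1 phosphate-starved replicate 2 (−0.76 ± 0.13; adjusted p = 0.000159). It was the 1 member of the phosphate list called with all libraries. Without that replicate 3 members were called. MpPTB7 was then higher (2.37 ± 0.64; adjusted p = 0.0152) and MpNLA lower (−1.96 ± 0.63; adjusted p = 0.041), beside MpSPX. Within the mutant set, the MpERF20 knock-out line also showed little MpSPX response (0.05 ± 0.09; edgeR adjusted p = 0.884). The MpCSD knock-out line raised MpSPX by 0.61 ± 0.09 (edgeR adjusted p = 1.15e-05). Mphd9-14 minus these lines was 0.06 ± 0.12 and −0.5 ± 0.13, and neither difference passed (edgeR adjusted p = 0.106 for the MpCSD line). The small MpSPX response is thus not particular to Mphd9-14 within that set.

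For peroxidases, polyphenol oxidases and wall genes the difference from Tak-1 depended on single Tak-1 libraries. The 18 peroxidases summed to 0.992, 20.6 and 1.73 CPM in phosphate-starved and 1.55, 3.17 and 2.28 CPM in control Tak-1 libraries, so replicate 2 alone lay above the Tak-1 controls. Of the 262 genes higher in Mphd9-14, 238 (90.8%) were above all 3 Tak-1 controls in Tak-1 phosphate-starved replicate 2, against 127 (48.5%) in replicate 1 and 122 (46.6%) in replicate 3. The same share over all tested genes was not computed, so these percentages only set the libraries side by side. With all libraries, the difference (Mphd9-14 minus Tak-1) was called and positive at 1 peroxidase, 3 polyphenol oxidases, 1 expansin and 4 wall enzymes, of 68, 29, 23 and 57 tested, and called and negative at 1, 1, 0 and 0. Over all 13475 genes it was positive at 413 and negative at 274, so peroxidases and expansins did not stand out. Without phosphate-starved replicate 2 the positive counts were 8, 7, 4 and 15, of 67, 29, 23 and 57 tested, and the negative ones 1, 2, 0 and 1. Over all 13448 genes tested then, 822 were positive and 546 negative, so calls also rose outside these lists. Other Tak-1 libraries moved the list counts too. Without phosphate-starved replicate 1 or 3 the positive polyphenol oxidases and wall enzymes were 0 and 0, and without control replicate 2 they were 0 and 1. MpPPO72 had 0.240, 1.69 and 0.228 CPM in phosphate-starved and 0.758, 0.543 and 0.342 CPM in control Tak-1 libraries. Its difference was 3.53 ± 1.06 with all libraries (edgeR adjusted p = 0.0439) and 5.01 ± 1.09 without replicate 2 (adjusted p = 0.00269). MpPOD135 had 0, 2.29 and 0.0326 CPM in phosphate-starved and 0.0632, 0.794 and 0.114 CPM in control Tak-1 libraries. Its difference was 3.43 ± 1.52 with all libraries (edgeR adjusted p = 0.199) and 8.39 ± 1.67 without replicate 2 (adjusted p = 0.00123). MpGT34.10 had 0.890, 5.82 and 0.522 CPM in phosphate-starved and 1.96, 3.01 and 2.17 CPM in control Tak-1 libraries, and its difference was 1.53 ± 0.58 with all libraries (edgeR adjusted p = 0.119) and 3.20 ± 0.38 without replicate 2 (adjusted p = 3.46e-06). Which of the Tak-1 libraries represents wild type was not tested.

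**Figure D4:**
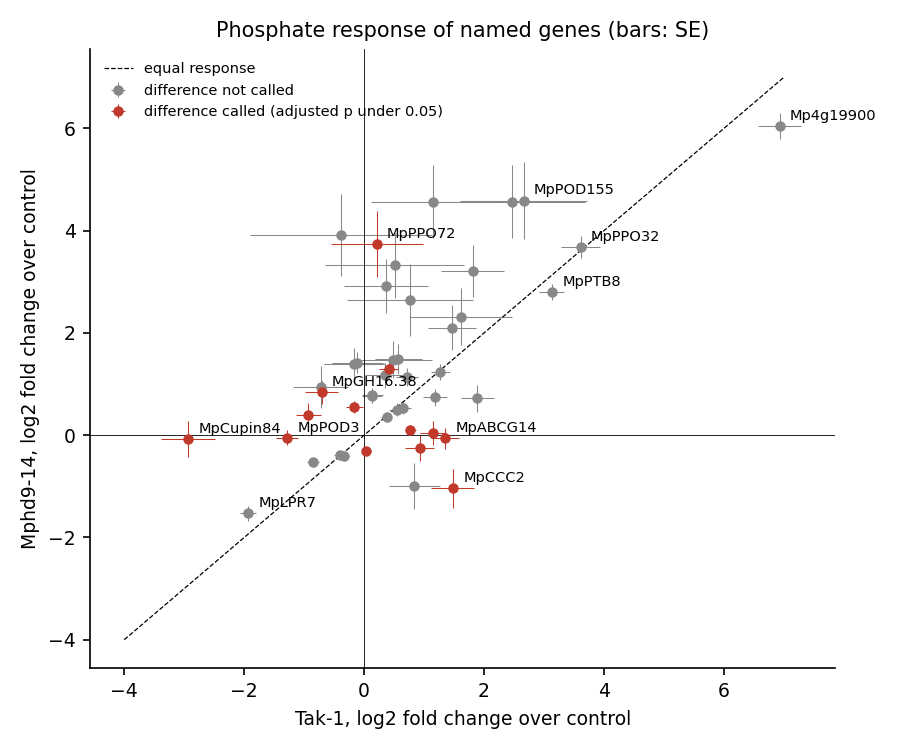
Each of the 46 points is a named gene with more than 3 control counts in both genotypes (Mp1g07680 and Mp2g25340, beyond 6.5 on the log2 scale in Mphd9-14, are not drawn), with its log2 fold change of phosphate-starved over control libraries in Mphd9-14 (y axis) and in Tak-1 (x axis), and SE bars. Red points have a called difference between the responses. MpPTB8, MpPPO32 and MpLPR7 lie near the dashed line of equal response, MpPPO72 lies well above it, and MpCCC2 and MpABCG14 lie below it.

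Within the mutant set, the counts of the other knock-outs are set side by side, without a test of the counts. Mpcsd-2 raised 842 genes with phosphate starvation (6.4% of those tested) and Mperf20-21 raised 501 (3.81%). Phosphate-starved Mpcsd-2 raised 28 peroxidases, 8 polyphenol oxidases, 8 genes of the phosphate list, 8 expansins and 18 wall enzymes. Phosphate-starved Mperf20-21 raised 23, 10, 5, 6 and 11 and lowered 1 polyphenol oxidase. In Mphd9-14 the counts were 18, 5, 5, 6 and 8. The 18 peroxidases of Mphd9-14 summed to 20.8, 49.2 and 7.90 CPM in phosphate-starved and 1.58, 1.14 and 0.980 CPM in control Mpcsd-2. In Mperf20-21 they summed to 27.0, 16.4 and 21.3 CPM in phosphate-starved and 1.67, 3.03 and 1.35 CPM in control libraries. In both lines all starved libraries lay above all controls. Summed MpPTB1 to MpPTB6 reached 22.4, 25.7 and 20.3 CPM in phosphate-starved Mphd9-14, 94.3, 76.0 and 74.3 CPM in phosphate-starved Mpcsd-2, and 26.3, 27.2 and 19.6 CPM in phosphate-starved Mperf20-21. The Mpcsd-2 libraries were thus the highest, and each control library of the 3 mutants had at most 0.0959 CPM.

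Tested directly, the response of Mphd9-14 differed from that of Mpcsd-2 at 42 genes, 0.319% of those tested, with 2 higher (Mp1g07670 and Mp3g04630) and 40 lower in Mphd9-14. The response was larger in Mpcsd-2 at 41 of the 42. The count was 12 to 24 without any 1 of 10 of the 12 libraries, 34 without Mphd9-14 control replicate 1 and 56 without Mpcsd-2 phosphate-starved replicate 3. Against Mperf20-21 it differed at 1 gene, 0.0076% of those tested, Mp5g21660, and at 302 genes by an unadjusted p under 0.05. DESeq2 also called 1. Mp5g21660 fell by 2.32 in Mphd9-14 on the log2 scale, where it rose by 2.03 in Mperf20-21. It was not called without any 1 of 10 of the 12 libraries, nor with replicate number as a block (0 genes).

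**Figure D5:**
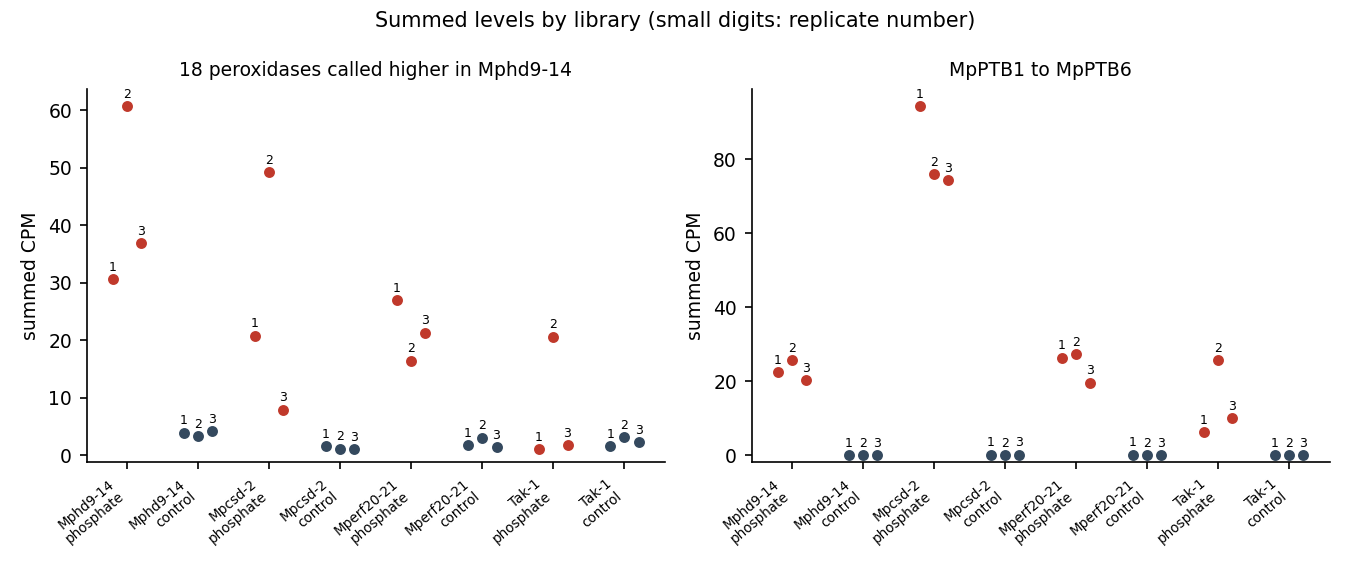
Points are single libraries, numbered by replicate, and the y axes give CPM summed over the 18 peroxidases called higher in Mphd9-14 (left) and over MpPTB1 to MpPTB6 (right), for phosphate-starved (red) and control (dark) plants of 4 genotypes. In each mutant the starved libraries lie above its controls for peroxidases, from 7.90 CPM (Mpcsd-2 replicate 3) to 60.7 CPM (Mphd9-14 replicate 2). Among starved Tak-1 libraries only replicate 2, at 20.6 CPM, lies above the Tak-1 controls. The 18 genes were chosen as higher in the Mphd9-14 libraries drawn, which fixes that those groups are apart. Mpcsd-2 has the highest transporter sums, 74.3 to 94.3 CPM.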

How the data were processed

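RNA of whole gemmalings was sequenced as directional, poly(A)-enriched libraries, per the labels' protocols. The submitters' processing notes name STAR 2.7 and DESeq2. What build, annotation, counter or strandedness was used is not given in the sources used here. The authors deposited whole-number counts per gene, and the tests started from these counts. Without a known strand setting, overlapping antisense genes, like near-identical family members, could not be told apart.

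Genes were fitted with edgeR 4.0.16 (limma 3.58.1, R 4.3.3): TMM scaling, filterByExpr with the groups, 1 mean per group over the 35 mutant libraries, and two-sided quasi-likelihood F-tests. Differences from Tak-1 were interaction contrasts over 41 libraries. A gene is called at a Benjamini-Hochberg adjusted p below 0.05, adjusted across every gene tested. SE is the log2 fold change divided by the root of F. Levels (CPM) are counts scaled to 1000000 per library, set across separately made tables without a common scaling. Bounds against a group without counts take 3 counts for that whole group. A ratio to 1 to 3 counts has an exact 95% interval. Alternatives were RLE scaling, no filter, DESeq2 1.42.0, a replicate block, the contrast's own libraries, other controls, a 2-fold limit, and each library left out.

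No columns were left unmatched (0), and 0 of 34 replicate pairs held identical counts. Gene symbols and gene order were looked up in a RefSeq table (assembly MpTak2_v7.1), where 17384 of 19355 identifiers matched and 3091 had a symbol. Members and the 31 gene lists were chosen with earlier results of these data known. Among called genes with a symbol, at least 10 CPM and groups apart, the rule named 8 at either end of the fold change, up to 3 of each list by adjusted p, the 3 mutated genes, all phosphate genes and those named earlier for wild type. Further contrasts named 4 per direction. The table holds no product descriptions, so that part of the rule gave none. The calling step was tested on simulated counts. No sequences were used here.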

Additional observations from a re-analysis of the deposited data

Results flagged for a closer look

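The phosphate response of Mphd9-14 differed from that of Tak-1, by a test of the difference itself, at 687 genes, and at 1368 without Tak-1 phosphate-starved replicate 2. Among named genes, the difference is given as Mphd9-14 minus Tak-1 on the log2 scale, from edgeR. At every gene listed below for Tak-1, Mpcsd-2 and Mperf20-21 also lay on the Mphd9-14 side of the Tak-1 response. Their responses were 0.02 and 0.02 for MpPOD3 (Tak-1 −1.29) and −0.44 and −0.54 for MpCupin84 (Tak-1 −2.94). For MpCCC2 they were −0.29 and −0.52 (Tak-1 1.48). These differences are thus not particular to Mphd9-14 within the mutant set.

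The largest positive difference among named genes with a called difference was that of MpPPO72, 3.53 ± 1.06 (adjusted p = 0.0439), and 5.01 without Tak-1 phosphate-starved replicate 2. MpCupin84, of the cupin family, had 8.47, 14.0 and 9.18 CPM in phosphate-starved and 10.2, 11.9 and 11.4 CPM in control Mphd9-14, and 1.78, 13.0 and 1.99 CPM in phosphate-starved and 34.0, 50.4 and 32.8 CPM in control Tak-1. The difference was 2.88 ± 0.64 (adjusted p = 0.00679), and 4.34 without Tak-1 phosphate-starved replicate 2. MpGH16.38, of the wall enzyme family GH16, differed by 1.54 ± 0.37 (adjusted p = 0.0125), and by 2.07 without that library. Its call was lost without Tak-1 phosphate-starved replicate 1 (adjusted p = 0.0594) or 3 (adjusted p = 0.0588). The ABC transporter gene MpABCG13 differed by 1.34 ± 0.31 (adjusted p = 0.00953), and by 1.40 without that library. MpPOD3, whose Mphd9-14 values overlapped between conditions, had 34.5, 72.0 and 43.5 CPM in phosphate-starved and 108, 126 and 118 CPM in control Tak-1. It differed by 1.25 ± 0.25 (adjusted p = 0.00368), and by 1.59 without that library.

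The most negative difference among named genes was that of MpCCC2. It had 12.7, 9.17 and 7.82 CPM in phosphate-starved and 17.3, 29.7 and 14.7 CPM in control Mphd9-14, and 133, 43.7 and 121 CPM in phosphate-starved and 44.0, 26.3 and 31.9 CPM in control Tak-1. The difference was −2.52 ± 0.55 (adjusted p = 0.00584), and −2.89 without Tak-1 phosphate-starved replicate 2. MpABCG14, an ABC transporter gene, differed by −1.41 ± 0.34 (adjusted p = 0.0116, and 0.0546 without Mphd9-14 control replicate 2), and by −1.66 without Tak-1 phosphate-starved replicate 2. The phosphatase gene MpPP2C_F3 differed by −1.18 ± 0.35 (adjusted p = 0.0402), a call lost without any 1 of 9 of the 12 libraries (adjusted p between 0.0556 and 0.125) and kept without Tak-1 control replicate 1 or Tak-1 phosphate-starved replicates 1 or 2 (−1.20 without the last). The receptor-like kinase gene MpRLK-Pelle_L-LEC26 differed by −1.11 ± 0.30 (adjusted p = 0.0279), a call lost without Mphd9-14 control replicates 2 or 3 (0.0547 and 0.0615), Mphd9-14 phosphate-starved replicate 2 (0.0729), Tak-1 control replicate 2 (0.0736) or Tak-1 phosphate-starved replicate 3 (0.0865). Without Tak-1 phosphate-starved replicate 2 it was −1.18 (0.0147).

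Against Mpcsd-2 the response differed at 42 genes. The differences, Mphd9-14 minus Mpcsd-2, were −1.71 for MpPP1I6, −1.23 for MpPPO4, −0.74 for MpRLK-Pelle_L-LEC2 and −0.72 for MpGARP6. The calls of MpPPO4, MpRLK-Pelle_L-LEC2 and MpGARP6 were each lost without at least 6 of the 12 libraries, taken 1 at a time, at adjusted p up to 0.195, 0.103 and 0.186. Against Mperf20-21 it differed at 1 gene, Mp5g21660.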

How the results depend on the processing

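The 303 genes called in phosphate-starved against control Mphd9-14 came to 303 with RLE scaling, 279 without a filter and 376 in DESeq2, and 282 of them were among the 707 called (567 higher, 140 lower) when the 6 libraries were fitted alone; the cause was not tested. With at least 2-fold change 177 remained. Against Mphd9-14 controls of the control-condition set the count was 5412, where set and treatment cannot be told apart. Leaving out 1 library gave 163 to 261 genes, and the fewer samples belong to that alternative. For the difference from Tak-1 (687), the 12 libraries alone gave 1453 and leaving out 1 gave 332 to 1368; DESeq2 gave 972. For Mpcsd-2 (42), leaving out 1 gave 12 to 56, and for Mperf20-21 (1), 0 to 1. For the contrast with nitrate starvation (149), its 6 libraries alone gave 557 and leaving out 1 gave 100 to 118; for sucrose starvation (3456) the range was 2412 to 3551.

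Same-numbered phosphate-starved and control libraries did not pair: their deviations correlated at 0.071, −0.023 and 0.188 over 13162 genes. The replicate block gave 278, 688, 31, 0, 136 and 3365 genes for the 6 comparisons in the order above. It ended the calls of MpDIR10 (adjusted p = 0.0723) and MpPKS/CHS23 (0.0502) and made one of MpPTB1 (0.0356); among named differences it ended those of MpPP2C_F3, MpPPO4, MpGARP6, MpHA11 and MpPOD88.

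Of 42 called named genes, 28 stayed called under RLE scaling, the replicate block, DESeq2, the contrast's own libraries and each library left out. Named genes were not checked without a filter, against other controls or at a 2-fold limit. Directions reversed for 2 uncalled genes: with 1 library left out MpERF20 lay between −0.12 and 0.26 and MpPOD3 between −0.13 and 0.03. Depth limits the lowest genes: 28 called genes had at most 3 control counts, and their fold changes are bounds or wide ratios.
Leaving out libraries for the peroxidase and phosphate lists, for the Tak-1 response and its shared genes, and all alternatives for named differences, were chosen after seeing the data.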

Other observations

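The following called genes lie outside the naming rule, were picked after their values were seen and form no tested group. MpRHM1, named for UDP-rhamnose synthases, had 267, 289 and 276 CPM in phosphate-starved and 256, 225 and 236 CPM in control Mphd9-14 (0.22 ± 0.06; edgeR adjusted p = 0.0474). MpC1-RGPs.1, named for reversibly glycosylated proteins that interconvert UDP-arabinose forms, had 198, 218 and 218 CPM in phosphate-starved and 169, 159 and 171 CPM in control libraries (0.35 ± 0.09; edgeR adjusted p = 0.0238). Its neighbour MpC1-RGPs.2 had 337, 362 and 359 CPM in phosphate-starved and 290, 292 and 301 CPM in control libraries (0.27 ± 0.07; edgeR adjusted p = 0.0346). These are small changes in well-expressed genes, and the groups did not overlap. MpAVP3, named for the proton pumps driven by pyrophosphate, had 1290, 1300 and 1220 CPM in phosphate-starved and 1130, 1140 and 1090 CPM in control libraries (0.19 ± 0.05; edgeR adjusted p = 0.0344).

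Lipoxygenases start the oxidation of fatty acids to signalling lipids. MpLOX1 had 27.6, 26.4 and 27.4 CPM in phosphate-starved and 15.5, 18 and 18.6 CPM in control libraries (0.65 ± 0.17; edgeR adjusted p = 0.0332). MpLOX11 had 1.26, 2.05 and 1.13 CPM in phosphate-starved and 0.399, 0.457 and 0.619 CPM in control libraries (1.58 ± 0.35; edgeR adjusted p = 0.00838).

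Control Mphd9-14 plants of the separate control-condition set had 1.37, 2.1 and 1.47 CPM of MpPTB1 to MpPTB6 in sum, against 0 in the 3 controls used above, and 4.44, 7.37 and 5.10 CPM of the 18 peroxidases, against 3.89, 3.29 and 4.11 CPM. MpPPO32 was also low there, at 5.38, 5.35 and 6.01 CPM. Other genes were not. The 6 called expansins summed to 38.3, 44.4 and 42 CPM there, against 19.9, 17.5 and 18.9 CPM in the controls used above. In phosphate-starved libraries they summed to 35.7, 40.1 and 33.5 CPM. MpPTB8 had 139, 135 and 140 CPM there, against 33.5, 32.2 and 30.8 CPM in the controls used above.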
